A study of Mus musculus with 18 samples.

Results

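The 50 genes described here carry a proteasome name: their mouse symbols begin with Psma, Psmb, Psmc, Psmd, Psme, Psmf or Psmg followed by a number, and they were found among 54532 counted genes. Of 54 symbols that matched, 4 with the ending of a pseudogene were left out. Their counts came from RNA-seq of cones sorted from wild-type mouse retinas, with 1 library per retina and 18 libraries in all, and every eye had been injected with adeno-associated virus (AAV) on the day of birth. BALB/c (albino) retinas were taken at postnatal day 21, 6 as BALB/c control and 6 as BALB/c Txnip. C57BL/6J retinas, from a strain that carries a null mutation of Nnt, were taken at postnatal day 35, 3 as C57BL/6J control and 3 as C57BL/6J Txnip. Control eyes received only the vector for the cone label H2BGFP, a nuclear green fluorescent protein. Txnip eyes received that vector together with one that expresses Txnip from the human red opsin promoter, which is active in cones. Nothing states that the retinas of a group came from separate animals, so a p-value here measures the spread between libraries. Strain and age changed together and cannot be told apart, and "strain difference" below stands for both.

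The proteasome is the protease that degrades proteins tagged with ubiquitin. Its 20S core is a barrel of α subunits (Psma) around β subunits (Psmb), and its cutting sites are on Psmb5, Psmb6 and Psmb7. Interferon-induced relatives, Psmb8, Psmb9 and Psmb10, replace Psmb5, Psmb6 and Psmb7 respectively in the immunoproteasome, which trims peptides for display by MHC class I. The 19S regulator, with ATPases (Psmc) and non-ATPases (Psmd), binds the core, recognises ubiquitin chains and unfolds the substrate, while the Psme activators open the core without needing ubiquitin. Photoreceptors make large amounts of opsin, and proteasome activity is known to be loaded when misfolded protein builds up in them. Txnip is an α-arrestin that binds thioredoxin and brings glucose transporters in from the cell surface, and it recruits ubiquitin ligases.

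By role the 50 genes were 14 standard core subunits (Psma1 to Psma7 and Psmb1 to Psmb7), the 3 immunoproteasome subunits, 2 tissue-specific core subunits, 6 19S ATPases, 11 19S non-ATPases, 6 activators and an inhibitor of the core (Psme1, Psme2, Psme2b, Psme3, Psme4 and Psmf1), 7 assembly chaperones (Psmd5, Psmd9, Psmd10 and Psmg1 to Psmg4) and 1 gene that matched by name only. The last is Psmc3ip, a partner of meiotic recombination enzymes and no subunit. The 19S subunits, activators and inhibitor are called regulatory subunits below. A filter on low counts left 45 of the 50 for the test of Txnip against control and 46 for the tests between strains. Psma8 of testis (0 to 4 counts per library), Psmb11 of thymus (0 to 3 counts), Psme2b (0 to 2 counts) and Psmb9 (0 to 13 counts) passed in no comparison, and Psmb8 (0 to 29 counts) passed only between strains.

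The β subunit with the chymotrypsin-like site, Psmb5, lies at chr14:54614119-54618022 (GRCm38, minus strand), and Gm3375, a predicted gene at chr7:3181093-3181888 (plus strand), is a near-identical copy of its coding sequence. The 2 sequences were 98.9% identical over 796 aligned bases, with 8 substitutions and 1 gap, and their longest run of identity was 194 bases. The stretch below, bases 263 to 502 of the Psmb5 coding sequence and 264 to 503 of Gm3375, is shown because a read within it can tell the genes apart only where it crosses one of 5 differences, marked by capitals. Counted from 1 at the start of the Psmb5 coding sequence, these are C297T, C306T, T387A, C417T and T465C, with the base of Psmb5 first. The substitutions outside this stretch are G6A, G106A and C660A.
Psmb5: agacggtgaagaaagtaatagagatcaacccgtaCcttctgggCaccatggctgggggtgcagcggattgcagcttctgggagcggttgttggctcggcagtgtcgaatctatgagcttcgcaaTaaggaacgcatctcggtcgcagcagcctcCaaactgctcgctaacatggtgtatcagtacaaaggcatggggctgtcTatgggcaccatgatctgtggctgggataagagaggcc
Gm3375: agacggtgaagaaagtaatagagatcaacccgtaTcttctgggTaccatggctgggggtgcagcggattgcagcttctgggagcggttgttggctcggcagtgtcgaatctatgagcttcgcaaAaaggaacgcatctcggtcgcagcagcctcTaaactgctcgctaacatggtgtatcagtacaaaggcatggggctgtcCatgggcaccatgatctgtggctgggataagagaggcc

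Levels are given as CPM, counts scaled to a common library size after correction for composition, or, between genes, as CPM per kilobase of exon. Library totals ran from 647712 to 5172156 counts (median 2886629). Txnip itself, the check of the labels, held at most 1.47 CPM in the BALB/c controls and 1021 to 1405 CPM in BALB/c Txnip, and 812 to 1958 CPM in C57BL/6J Txnip. Cone genes took 3.46% to 9.46% of counts, and all 12 on the list had counts in every group. Ganglion cell genes were called lower in C57BL/6J than in BALB/c cones for 5 of 5 listed, in control and in Txnip cones, where 9.52% and 9.38% of all genes were called lower. They took 0.0309% to 0.0966% of counts in BALB/c and 0.00186% to 0.0109% in C57BL/6J libraries. Rod genes took 1.41% of counts in C57BL/6J control 1 and 0.978% in C57BL/6J Txnip 2, against 0.110% to 0.285% elsewhere. In bulk libraries fewer cells of a type and less RNA per cell cannot be told apart. The overlapping genes of a ribosomal RNA locus took 27.5% of counts in C57BL/6J control 2, 26.9% in C57BL/6J Txnip 2 and 20.2% in C57BL/6J Txnip 3, against 3.27% to 16.3% elsewhere.

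The standard core and 19S subunits were among the more abundant transcripts of these cones, while the immunoproteasome subunits Psmb8 and Psmb9 were near the detection limit. In BALB/c controls the median level per length of the 14 standard core subunits was 37.6 ± 2.02 CPM per kilobase (SD over libraries, n = 6), and in C57BL/6J controls it was 46.8 ± 12.9 (n = 3). The typical standard core subunit stood at percentile 91.9 of all tested genes in BALB/c controls and at 93.3 in C57BL/6J controls. The 6 ATPases had the highest median, 62.3 ± 6.15 and 66.6 ± 14.2 CPM per kilobase in the 2 control groups in the same order, and the 11 non-ATPases had 34.5 ± 2.63 and 34.2 ± 6.84. Assembly chaperones, which help build the particle and are not part of it, had 14.4 ± 2.81 and 10.9 ± 1.04. Activators and inhibitor had 4.41 ± 0.80 and 6.47 ± 0.27, and the 3 immunoproteasome subunits 0.913 ± 0.768 and 0.342 ± 0.0718.

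Within each role the members did not stand at one level. Among core subunits of BALB/c controls, Psmb6, with the caspase-like site, was highest at 103 CPM per kilobase and Psmb7, with the trypsin-like site, lowest at 17.6. In C57BL/6J controls the highest was Psmb5 at 127, and Psmb7 was again lowest at 18.9. The level of Psmb5 leaves out counts on its copy Gm3375, many in BALB/c and few in C57BL/6J. Its rank is therefore not compared between strains. Among ATPases Psmc5 was highest (112 and 121 CPM per kilobase) and Psmc2 lowest (30.0 and 31.8) in both control groups. Among non-ATPases, Psmd2, which binds the shuttle factors that bring ubiquitinated proteins, led in BALB/c controls at 63.3 and Psmd8 in C57BL/6J controls at 76.9, and Psmd11 was lowest at 8.81 and 7.24. Psmf1, which inhibits the core in vitro, was the highest of its role at 12.2 and 11.8, and Psme2b the lowest at 0.182 and 0.251. Of the chaperones, Psmg2 led at 53.7 and 67.9 and Psmd9 was lowest at 5.11 and 6.30.

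**Figure D1:**
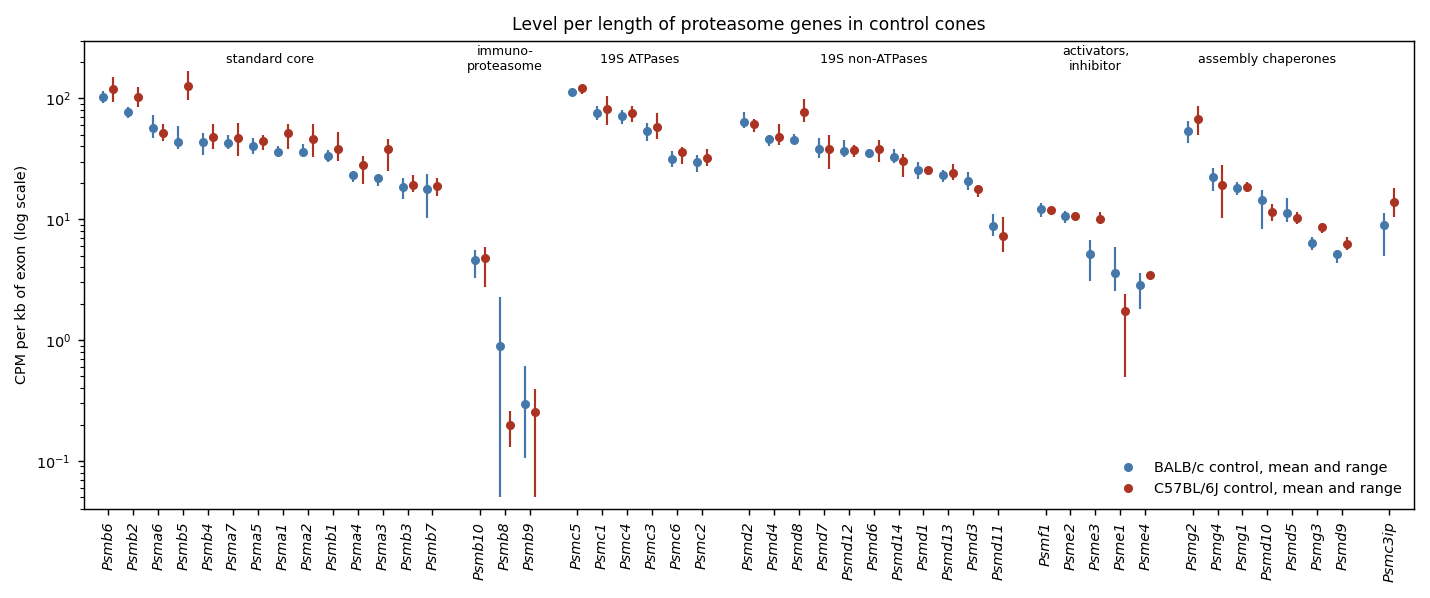
Level per length (CPM per kilobase of exon, log axis) of the members in the control groups, by role. Dots are means and lines the range over libraries (6 BALB/c, 3 C57BL/6J), with ranges that reach 0 drawn down to 0.05. Psma8, Psmb11 and Psme2b are left out. Psmb8 and Psmb9 lie lowest, and within each role the genes spread over a wide range of levels.

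The spread of the core subunits between libraries was larger in C57BL/6J than in BALB/c cones. The median coefficient of variation of the core subunits was 9.50% in BALB/c controls, against 13.9% for genes of like level, and 25.2% in C57BL/6J controls, against 17.5%. In the Txnip groups it was 11.8% (BALB/c) and 39.5% (C57BL/6J), against 13.4% and 21.5%. Over the 5 tested activators and inhibitor the median was 24.6% for BALB/c controls and 5.27% for those of C57BL/6J, against 20.7% and 25.9% for genes of like level, and 21.4% and 15.7% in the Txnip groups, against 19.2% and 28.4%. Single members of that role went both ways, and in C57BL/6J controls they ran from 1.63% to 61.7%, the highest being Psme1. For chaperones the median was 15.3% and 12.01% in controls, against 18.96% and 22.4%, and 22.6% and 28.9% in the Txnip groups, against 19.4% and 25.2%. All members together took 0.355% to 0.447% of counts in the 12 BALB/c libraries. They took 0.502%, 0.299% and 0.530% in the 3 C57BL/6J controls and 0.596%, 0.291% and 0.374% in the 3 C57BL/6J Txnip libraries. The lowest shares were in C57BL/6J control 2 and C57BL/6J Txnip 2, the libraries with the largest share of counts on the ribosomal RNA locus. Whether that locus had a part in the lower shares was not tested.

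Psmb8 and Psmb9 were far below their standard counterparts in all groups, and Psmb10 was lower than its counterpart by less. Summed and per length, Psmb8, Psmb9 and Psmb10 came to 3.53% ± 0.79 of Psmb5, Psmb6 and Psmb7 in BALB/c controls (SD, n = 6) and to 3.57% ± 1.598 in BALB/c Txnip (n = 6). In C57BL/6J they came to 2.13% ± 1.03 in controls (n = 3) and 1.74% ± 0.32 in Txnip (n = 3). Most of the sum was Psmb10 (chr8:105935735-105938444), which stood at 28.0% ± 10.2 of Psmb7 in BALB/c controls and 26.6% ± 12.7 in C57BL/6J controls. Psmb8 was at 1.91% ± 1.47 of Psmb5 in BALB/c controls and 0.166% ± 0.0865 in C57BL/6J controls. Counts on the copy Gm3375, many in BALB/c and few in C57BL/6J, are not in the denominator of this ratio or of the summed one, so neither is compared between strains. Psmb9 was at 0.292% ± 0.203 of Psmb6 in BALB/c controls and 0.194% ± 0.173 in C57BL/6J controls.

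Psmb10 held 5.59 to 9.56 CPM (median 7.89) in BALB/c controls and 0 to 10.1 CPM (median 8.10) in BALB/c Txnip. In C57BL/6J it held 9.64, 9.95 and 4.69 CPM in controls and 9.18, 4.35 and 5.96 in Txnip, so that all groups overlapped. Psmb8 (chr17:34197721-34201454) held 0 to 6.16 CPM (median 2.30) in BALB/c controls and 1.93 to 6.13 (median 2.86) in BALB/c Txnip. In C57BL/6J it held 0.357, 0.711 and 0.552 CPM in controls and 0, 2.90 and 0 in Txnip. All but 1 C57BL/6J library were therefore below each BALB/c Txnip library, but they overlapped the BALB/c controls, and each value rests on few reads. Psmb9 (chr17:34181988-34187764) held 0.385 to 2.24 CPM (median 1.01) in BALB/c controls and 0 to 2.75 (median 0.439) in BALB/c Txnip. It held 1.43, 0 and 1.38 CPM in C57BL/6J controls and 0, 0 and 0.229 in C57BL/6J Txnip. Psmb9 shares 212 exonic bases with Tap1 and Psmb8 shares 186 with Gm20496, both on the opposite strand, and reads there cannot be told apart because strand was not used in counting.

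In BALB/c cones no member passed the test for Txnip, and Psmd3, described below, was called in some alternatives. Of 45 members tested, 0 passed an adjusted p of 0.05 (edgeR quasi-likelihood test with Benjamini-Hochberg adjustment over 12017 genes), where the test called 0.0166% of all genes. DESeq2 called 0 members too. At an unadjusted p under 0.05 there were 3 members, against 11.4% of all genes. The median log2 difference of the core subunits was -0.01, with 6 of 14 above 0 (50.1% of all genes), that of the regulatory subunits -0.01 with 10 of 22 above 0, and that of the assembly chaperones -0.07, against 0.00 over all genes. The 95% intervals of the 14 core subunits lay between -0.37 and 0.47 on the log2 scale. For the catalytic subunits the log2 differences were -0.08 (SE 0.14) for Psmb5, -0.12 (SE 0.08) for Psmb6 and 0.05 (SE 0.16) for Psmb7. Psmb10, the one immunoproteasome subunit that passed the filter, had -0.02 (SE 0.31, 95% interval -0.66 to 0.62).

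Psmd3, a non-ATPase of the 19S lid (chr11:98682554-98695979), had the lowest estimate with Txnip in BALB/c and did not pass the test. The 6 BALB/c controls held 86.0 to 123 CPM (median 104). The BALB/c Txnip libraries 1 to 6 held 128, 107, 26.8, 15.9, 22.8 and 20.02 CPM, so that 2 libraries were within or above the control range and 4 were below it. The log2 difference was -0.80 (SE 0.36, adjusted p = 0.407, edgeR). Without BALB/c Txnip 1 it was -1.28 and passed (adjusted p = 0.0434), and with all genes that had at least 1 count in the fit it was -0.81 and passed (adjusted p = 2.58e-08). Gm12356, which shares 17 exonic bases with Psmd3 on the opposite strand, held 5.27 to 9.31 CPM in BALB/c controls and 8.46, 7.38, 1.69, 0.638, 3.52 and 1.54 CPM in BALB/c Txnip 1 to 6. The 4 libraries low in Psmd3 were the 4 lowest in Gm12356. In C57BL/6J, Psmd3 held 92.8, 75.7 and 95.7 CPM in controls and 107, 99.4 and 120.0 in Txnip, and it was among the largest estimates there (0.30, SE 0.19).

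The other members at the ends of the BALB/c comparison did not pass either. Psme1, the interferon-induced α chain of the activator that caps the core, had 0.66 (SE 0.28, adjusted p = 0.367, edgeR). Psmb4, a β subunit without a cutting site, had 0.23 (SE 0.11, adjusted p = 0.445), and the lid subunit Psmd12 had -0.22 (SE 0.10, adjusted p = 0.409). No member had groups that did not overlap, where 0.716% of all genes did.

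In C57BL/6J cones 0 of 45 members passed with Txnip, where the test called 0.0154% of 12974 genes (edgeR quasi-likelihood test). DESeq2 called 0 members as well, and 0 members had an unadjusted p under 0.05, against 0.748% of all genes. With 3 libraries a group and their spread, the estimates were wide: the 95% intervals of the core subunits lay between -0.85 and 0.96, and the median SE over members was 0.276, against 0.107 in BALB/c. Medians were -0.02 for the core subunits, of which 6 of 14 were above 0 (52.1% of all genes), 0.04 for the regulatory subunits and -0.04 for the chaperones, against 0.01 over all genes. Psmb5 had -0.17 (SE 0.30), Psmb6 -0.03 (SE 0.30), Psmb7 -0.02 (SE 0.21) and Psmb10 -0.32 (SE 0.49). Psmd11, which stabilises the join between 19S and core, had the largest estimate at 0.48 (SE 0.31). It held 38.2, 66.5 and 33.9 CPM in controls and 50.2, 79.5 and 63.5 in Txnip. The lowest estimates were those of the chaperone Psmg4 (-0.41, SE 0.51) and of Psme1 (-0.36, SE 0.67). Leaving out 1 library moved these estimates to between 0.26 and 0.83 for Psmd11, -0.76 and -0.028 for Psmg4 and -0.81 and -0.022 for Psme1. Psmd3 and Psmf1 had groups that did not overlap, both higher with Txnip, 4.44% of the members tested, against 4.39% of all genes in either direction and 2.20% higher. Psmf1 moved from 77.5, 75.0 and 76.1 CPM to 78.3, 77.7 and 82.3.

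**Figure D2:**
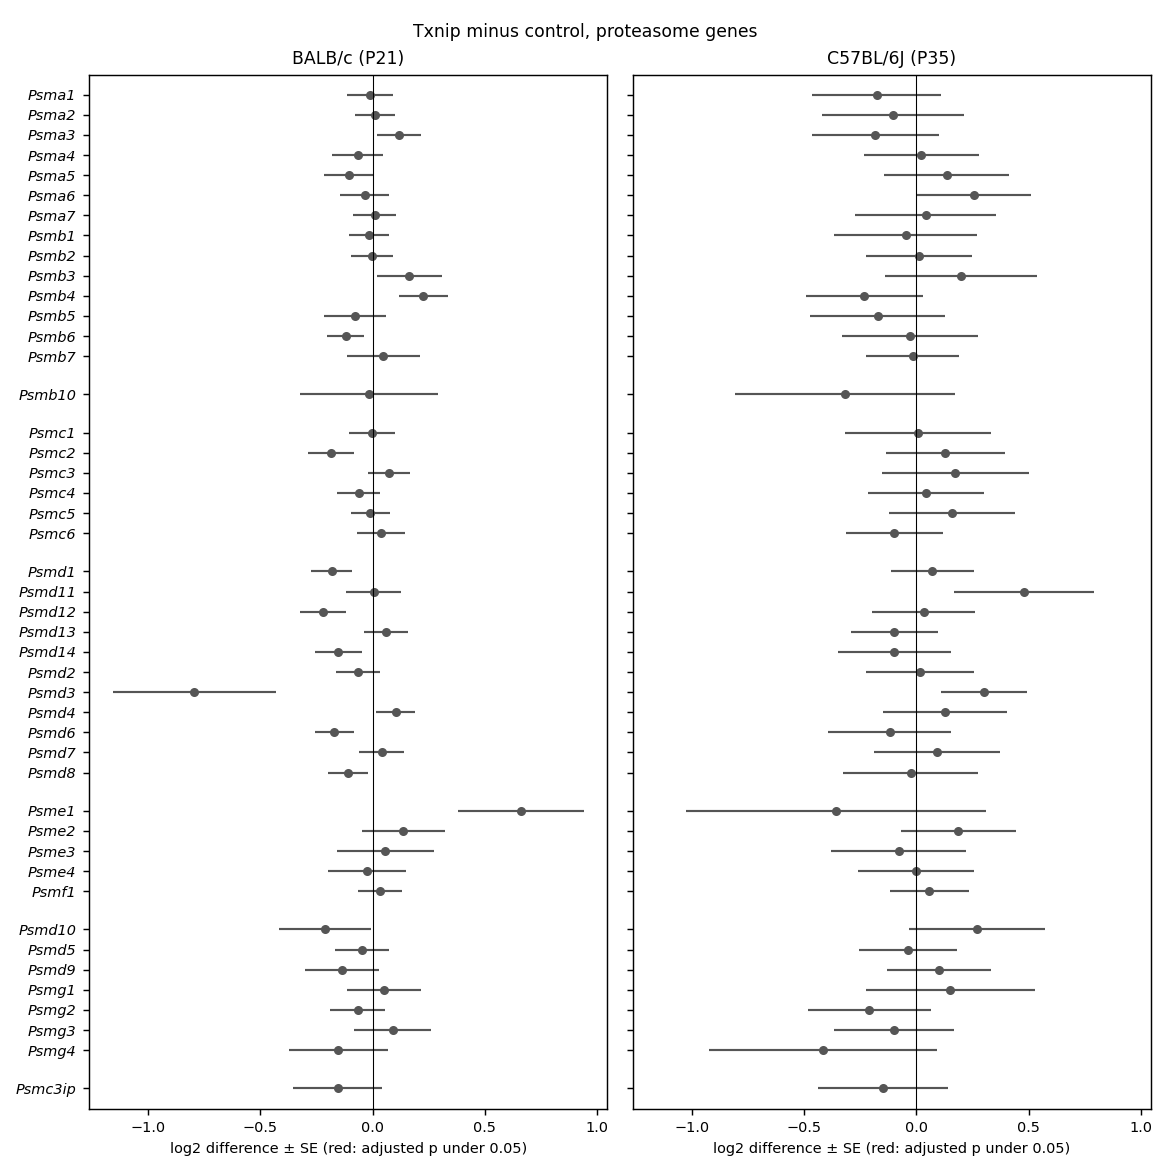
Log2 difference of Txnip from control for the 45 tested members in BALB/c and in C57BL/6J cones, with bars for the SE, grouped by role. None passed the test. Bars are wider in C57BL/6J, and Psme1 and Psmd3 mark the ends in BALB/c at 0.66 and -0.80.

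The Txnip effect was then compared between strains. No member differed (0 of 46, edgeR quasi-likelihood test), and the test called 0.00% of 14751 genes. At an unadjusted p under 0.05 there were 0 members and 706 genes (4.79%), and DESeq2 called 0 members. The largest differences, C57BL/6J minus BALB/c, were 1.14 (SE 0.60) for Psmd3 and 0.50 (SE 0.35) for the chaperone Psmd10, and the lowest were -0.97 (SE 0.62) for Psme1 and -0.45 (SE 0.25) for Psmb4. With 1 library left out the estimates came as near to 0 as 0.24 for Psmd10, -0.62 for Psme1 and -0.23 for Psmb4. With all genes that had at least 1 count, Psmd3 passed at 1.14 (adjusted p = 0.00700).

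Between strains, 4 of 46 members were higher in C57BL/6J than in BALB/c control cones and 0 were lower (edgeR quasi-likelihood test), 8.70% of those tested, where the test called 17.5% of 14751 genes (8.03% higher and 9.52% lower). The 4 were Psmb5, Psma3, Psmd8 and Psme3. Among Txnip cones Psmb5, Psmd8 and Psme3 were higher and Psme1 was lower, again 4 of 46, where the test called 17.6% of all genes (8.24% higher and 9.38% lower). The share of members called was below that of all genes in both of these fits. DESeq2 called 4 members in each too. In controls 7 members were higher and 1 lower without overlap, 17.4% of members against 18.6% of all genes (9.08% higher and 9.55% lower). In Txnip cones 4 were higher and 1 lower without overlap, 10.9% against 17.9% (8.16% higher and 9.73% lower).

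Without C57BL/6J control 2, 7 members were called in control cones (Psma1, Psma3, Psmb2, Psmb5, Psmd8 and Psme3 higher, and Psmd11 lower), 15.2% of members against 16.1% of all genes in that fit. Psmd11 has near-identical copies, A730017L22Rik and Gm14048, and its log2 difference with all libraries was -0.29 (SE 0.20, adjusted p = 0.343) alone and -0.03 (SE 0.19, adjusted p = 0.929) with the copies summed in, by edgeR. Without C57BL/6J control 3, 2 were called (Psma3 and Psmb5), 4.35% against 10.4%. In Txnip cones 2 members were called without C57BL/6J Txnip 1 (Psmb5 and Psme1), 4.35% against 12.5% of all genes. Without C57BL/6J Txnip 2 there were 14, of which 12 were higher, 30.4% of members against 18.7% of all genes, so that the share of members was then the larger. Those 14 added Psma3, Psma5, Psmb2, Psmb6, Psmb8, Psmc2, Psmc3ip, Psmc5, Psmd9 and Psmd12 to the 4 above, all higher except Psmb8.

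**Figure D3:**
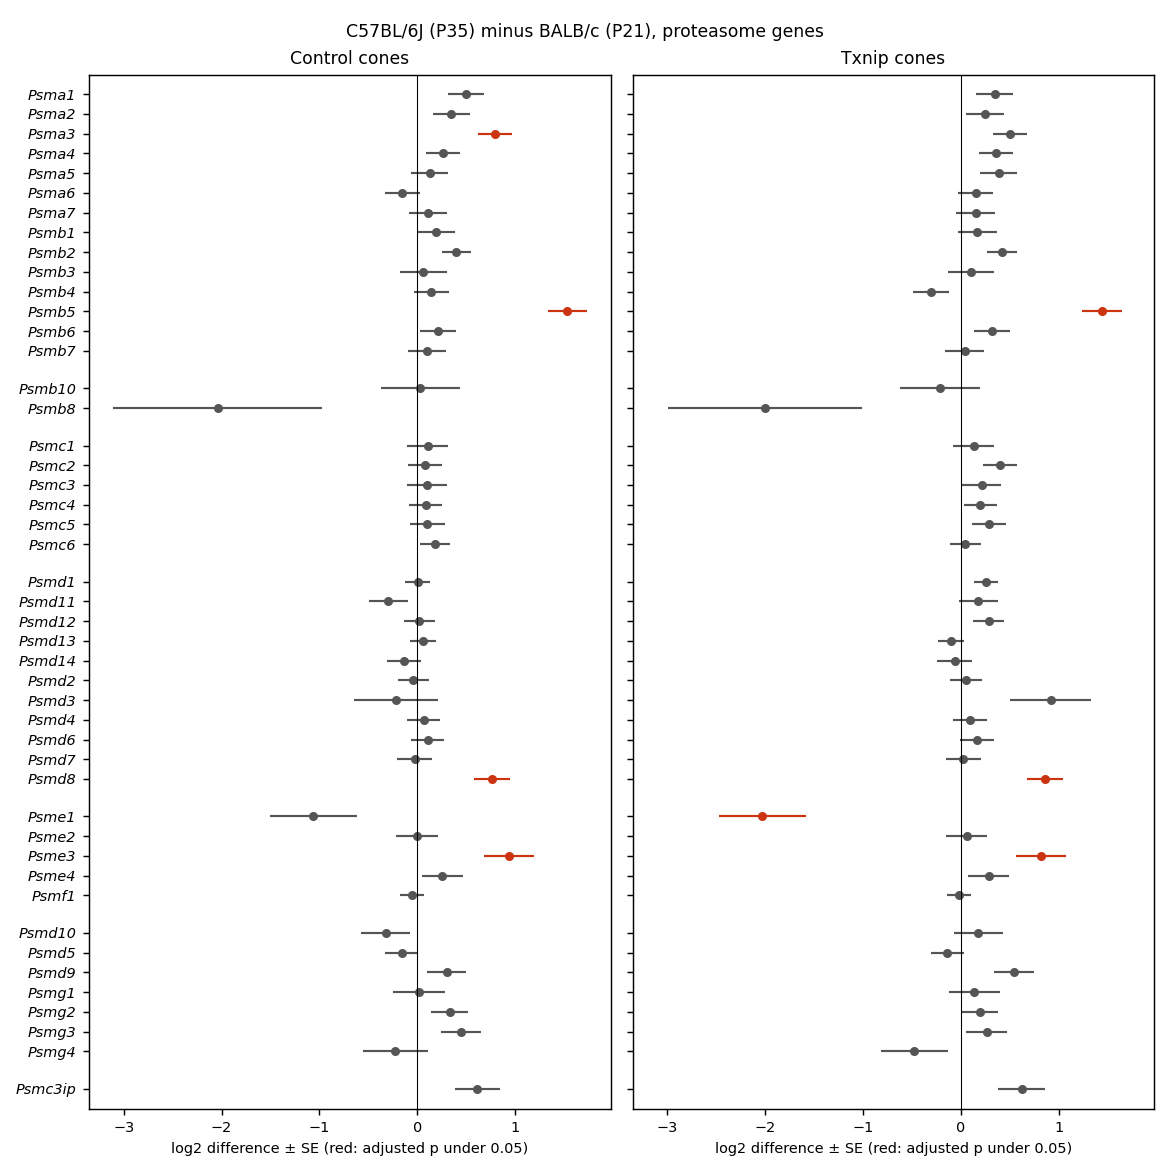
Strain difference (log2, C57BL/6J minus BALB/c) of the 46 tested members in control and in Txnip cones, with bars for the SE, grouped by role and with genes of adjusted p under 0.05 in red. Psmb5 stands far to the right in both panels (1.54 and 1.45), and Psme1 at -2.03 is the one called lower, in Txnip cones.

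Psmb5 had the largest upward strain difference of the members when its copy was counted apart. It held 34.3 to 53.2 CPM (median 36.9) in BALB/c controls and 33.9 to 44.7 (median 34.8) in BALB/c Txnip. It held 104.6, 87.8 and 150.3 CPM in C57BL/6J controls and 148.0, 69.0 and 89.0 in C57BL/6J Txnip. Every C57BL/6J library was above every BALB/c library. The log2 difference was 1.54 in controls (SE 0.20, 95% interval 1.12 to 1.95, adjusted p = 1.07e-05) and 1.45 in Txnip cones (SE 0.21, adjusted p = 2.70e-05), by edgeR.

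Its copy Gm3375 went the other way. Gm3375 held 35.5 to 48.9 CPM (median 46.5) in BALB/c controls and 35.4 to 51.0 (median 42.9) in BALB/c Txnip. In C57BL/6J it held 0.714, 0 and 0.827 CPM in controls and 0.540, 0 and 0.918 in Txnip, which is 0 to a few counts a library. Of the counts on both genes, 47.2% to 57.8% were on Gm3375 in the BALB/c libraries and 0% to 1.02% in the C57BL/6J libraries. The sum of both was 84.4 ± 9.36 CPM in BALB/c controls (SD, n = 6) and 115 ± 32.7 in C57BL/6J controls (n = 3), and 80.7 ± 10.2 and 102 ± 41.2 in the Txnip groups. Tested as 1 gene, an alternative added after the values were seen, Psmb5 with its copy differed between strains by 0.44 in controls (SE 0.19, 95% interval 0.05 to 0.84, adjusted p = 0.116) and by 0.35 in Txnip cones (SE 0.19, adjusted p = 0.241), by edgeR. Neither passed. How the aligner divided reads between the genes, and whether the strains differ in sequence at either, was not tested. Mir686, a microRNA gene of which 109 bases lie within the exons of Psmb5 on the same strand, was also called higher in C57BL/6J, by 1.64 in controls (SE 0.23, adjusted p = 2.59e-05).

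**Figure D4:**
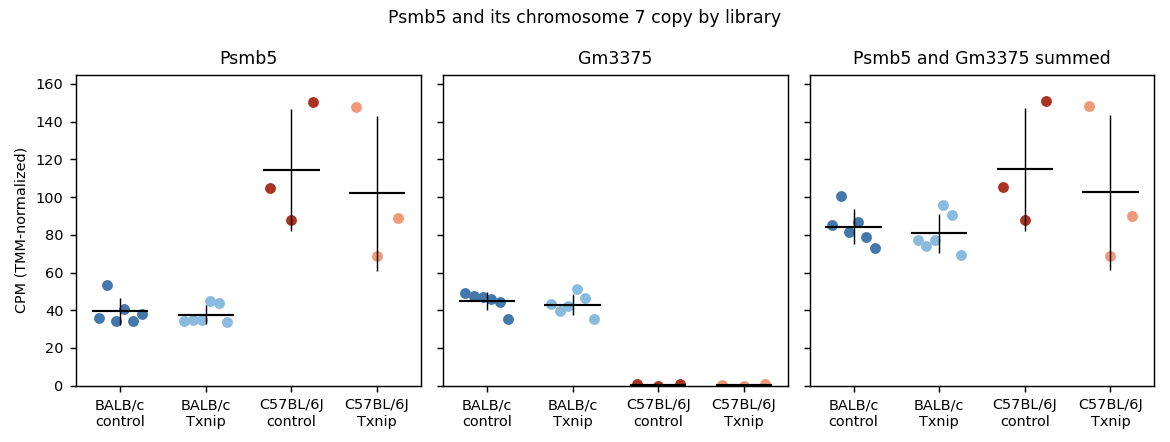
CPM of Psmb5, of its near-identical copy Gm3375 and of both summed, 1 point per library in the 4 groups, with a horizontal line for the mean and a vertical line for ± SD. Psmb5 is higher and Gm3375 near 0 in all 6 C57BL/6J libraries, and the sums of the strains overlap.

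The other catalytic subunits passed in neither strain comparison. Psmb6 held 170.0 to 215 CPM (median 194) in BALB/c controls and 219, 174 and 284 in C57BL/6J controls, a log2 difference of 0.22 (SE 0.18, adjusted p = 0.464) that ranged from 0.019 to 0.35 when 1 library was left out. In Txnip cones it had 0.32 (SE 0.18, adjusted p = 0.260). Psmb7 had 0.10 (SE 0.20) in controls and 0.04 (SE 0.20) in Txnip cones, and Psmb10 0.03 (SE 0.41, 95% interval -0.81 to 0.87) and -0.21 (SE 0.41). Psmb8 had -2.04 in controls (SE 1.07, 95% interval -4.26 to 0.18, adjusted p = 0.202) and a 95% interval of -4.06 to 0.06 in Txnip cones (SE 0.99, adjusted p = 0.180), by edgeR. Without C57BL/6J Txnip 2 it was called lower in Txnip cones (adjusted p = 0.00684), with both remaining C57BL/6J Txnip libraries at 0 counts, so no fold is given.

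Psma3, an α subunit of the outer ring (chr12:70974621-70996347), was higher in C57BL/6J control cones. It held 73.2 to 91.1 CPM (median 87.7) in BALB/c controls and 169, 97.0 and 179 in C57BL/6J controls, which did not overlap. The log2 difference was 0.80 (SE 0.18, adjusted p = 0.00276, edgeR), and 0.77 with its near-identical copies summed in (adjusted p = 0.00290). In Txnip cones it held 79.1 to 108 CPM (median 95.1) in BALB/c and 171, 96.2 and 127 in C57BL/6J, and the groups overlapped at 0.50 (SE 0.18, adjusted p = 0.0548). There it passed without C57BL/6J Txnip 2 (0.67, adjusted p = 0.0124) and without C57BL/6J control 2 (0.48, adjusted p = 0.0266), a library that enters through the shared estimate of spread. It also passed without both C57BL/6J libraries high in rod genes (adjusted p = 0.0103) and with robust estimation (adjusted p = 0.0491).

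Psmd8, a non-ATPase of the 19S lid (chr7:29174188-29180701), was higher in C57BL/6J in both comparisons. It held 131 to 155 CPM (median 134) in BALB/c controls and 204, 196 and 305 in C57BL/6J controls. In Txnip cones it held 103 to 144 CPM (median 133) in BALB/c and 336, 149.5 and 212 in C57BL/6J. All C57BL/6J libraries were above the BALB/c libraries of their own treatment. The log2 differences were 0.77 (SE 0.18, adjusted p = 0.00526) and 0.86 (SE 0.18, adjusted p = 0.00204), by edgeR. Without C57BL/6J control 3 the first was 0.54 (adjusted p = 0.0867), and without C57BL/6J Txnip 1 the second was 0.50 (adjusted p = 0.0504), so that neither call held without that library.

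The activators split. Psme3 (chr11:101316213-101323537), a nuclear activator that is not induced by interferon, was higher in C57BL/6J. It held 9.08 to 19.8 CPM (median 16.0) in BALB/c controls and 26.8, 27.4 and 33.9 in C57BL/6J controls, and in Txnip cones 12.1 to 19.6 (median 14.8) against 41.3, 19.96 and 22.7. Neither pair of groups overlapped. The log2 differences were 0.94 (SE 0.25, adjusted p = 0.0124) and 0.82 (SE 0.26, adjusted p = 0.0299), by edgeR. The first did not pass without C57BL/6J control 3 (0.82, adjusted p = 0.0809). The second fell by most without C57BL/6J Txnip 1, to 0.42 (adjusted p = 0.332), and did not pass without BALB/c Txnip 3 (0.78), 4 (0.75), 5 (0.76) or 6 (0.77) either. Psme4, an activator with a part in DNA repair and spermatogenesis, and the inhibitor Psmf1 passed in neither comparison.

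Psme1 (chr14:55578123-55581529) was lower in C57BL/6J Txnip cones. It held 6.15 to 19.8 CPM (median 10.3) in BALB/c Txnip and 2.97, 2.90 and 2.98 in C57BL/6J Txnip, at 4 to 77 counts a library over all groups. In control cones it held 5.59 to 12.9 CPM (median 7.14) in BALB/c and 5.36, 4.98 and 1.10 in C57BL/6J. The groups did not overlap in either comparison. The log2 difference was -2.03 in Txnip cones (SE 0.45, 95% interval -2.96 to -1.10, adjusted p = 0.00282) and -1.06 in control cones (SE 0.44, adjusted p = 0.101), by edgeR. The latter ranged from -1.42 to -0.59 when 1 library was left out. The difference between these, tested as the Txnip effect above, did not pass. Its partner chain Psme2 held 16.4 to 20.5 CPM (median 19.4) in BALB/c controls and 19.3, 19.6 and 17.9 in C57BL/6J controls and was called in neither comparison.

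**Figure D5:**
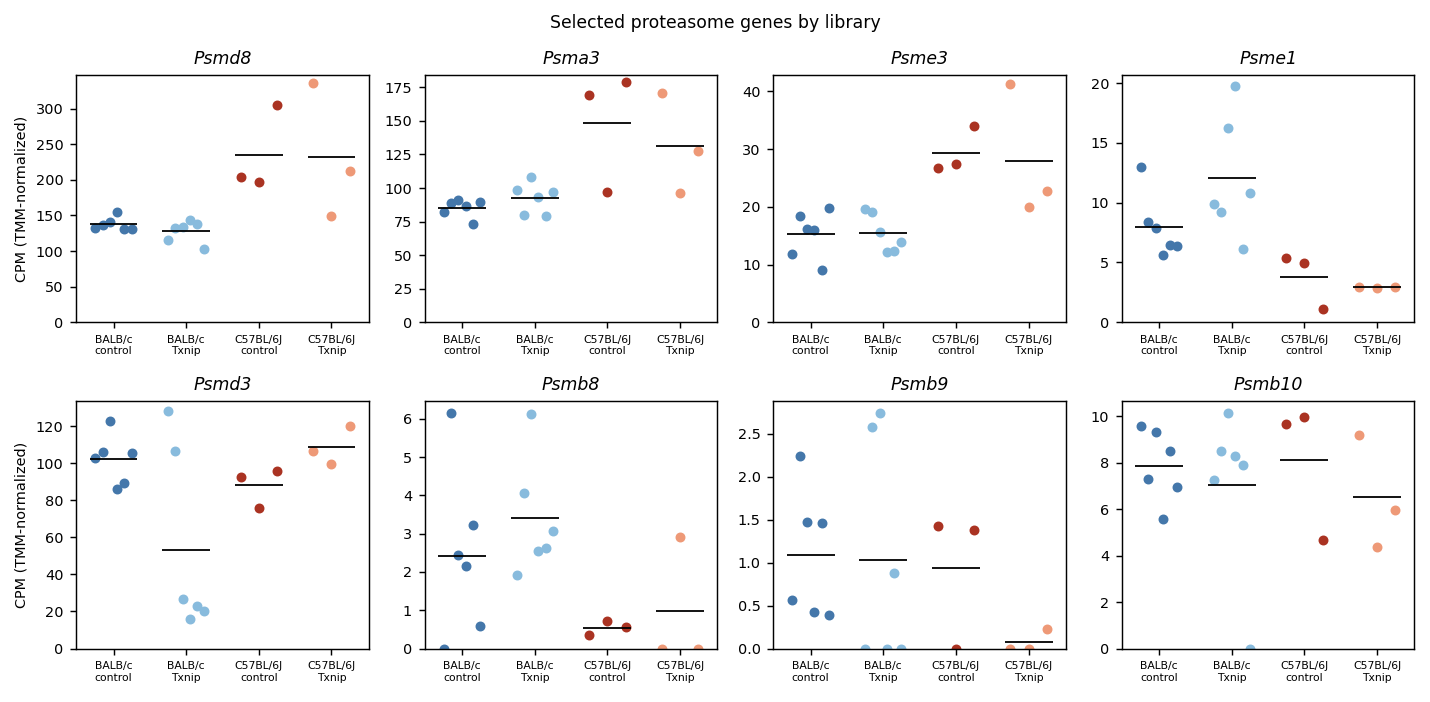
CPM per library of Psmd8, Psma3, Psme3, Psme1, Psmd3, Psmb8, Psmb9 and Psmb10 in the 4 groups, 1 point per library with a line for the mean. Psmd8 and Psme3 sit higher and Psme1 lower in C57BL/6J, and the 6 BALB/c Txnip libraries of Psmd3 lie at 15.9 to 26.8 CPM for 4 and at 107 and 128 CPM for 2.

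Most members, called or not, lay above 0 between strains. In control cones 34 of 46 members had a log2 difference above 0 (73.9%), against 49.9% of all genes, and in Txnip cones 37 of 46 (80.4%), against 54.0%. Of the 14 core subunits 13 were above 0 in each, the exceptions being Psma6 in controls (-0.15) and Psmb4 in Txnip cones (-0.31). Core medians were 0.20 and 0.28, regulatory medians 0.06 and 0.17 and chaperone medians 0.02 and 0.18, against 0.00 and 0.05 over all genes. The 6 ATPases were above 0 in both comparisons, at 0.08 to 0.18 in controls and 0.05 to 0.40 in Txnip cones, and 0 of them passed. The core median in control cones was 0.03 to 0.33 over the fits that left out 1 library and stayed above 0, while the regulatory median there ranged from -0.056 to 0.14 and the chaperone median from -0.062 to 0.070. The core median in Txnip cones went from -0.075 without C57BL/6J Txnip 1 to 0.47 without C57BL/6J Txnip 2. Medians of marker genes above 0 in both included those of cones (0.40 and 0.46, with 4 and 6 of 12 called higher), rods (1.596 and 1.37, with 5 and 1 of 9), bipolar cells (0.64 and 1.18, with 0 and 1 of 8) and Müller glia (0.89 and 1.46), where 8.03% and 8.24% of all genes were called higher. Of 7 Müller genes tested, 2 were called higher and 1 lower in each. The Müller list took a smaller share of counts in C57BL/6J (medians 0.0774% against 0.114% in controls, 0.0619% against 0.121% in Txnip). Also above 0 were microglia (0.39 and 0.26, 2 tested, 1 called higher in controls) and endothelial cells (1.53 and 1.00, 1 tested). Amacrine, horizontal, ganglion and pigment epithelium medians were below 0 in both. The part of these cell types in the shift of the members was not tested. Psmc3ip, no subunit, had 0.62 in both (adjusted p = 0.0692 and 0.0745, edgeR).

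The promoters of the called members with a searched motif are printed because the strain comparisons bear on these genes. RefSeq promoters of GRCm38.p6, from 250 bases before to 50 bases after the start site, were matched for 42 of the 50 members. They were searched on both strands for the core of the antioxidant response element, TGACNNNGC, which Nfe2l1 and related factors bind, and for the interferon-stimulated response element in the form GAAANNGAAA. The first was found in 6 of 42 members (14.3%), Psmb5, Psmb6, Psmc6, Psmd9, Psmd12 and Psme4, against 14.0% of 27025 genes with a promoter. The second was found in 5 (11.9%), Psmb3, Psmd4, Psmd9, Psme1 and Psmg4, against 3.99%. Neither was found in the 3 immunoproteasome promoters. Capitals mark the match in the promoters of Psmb5 (chr14:54617946-54618245, minus strand), at -47 from the start site, and of Psme1 (chr14:55578244-55578543, plus strand), at 9 and read on the opposite strand.
Psmb5 promoter: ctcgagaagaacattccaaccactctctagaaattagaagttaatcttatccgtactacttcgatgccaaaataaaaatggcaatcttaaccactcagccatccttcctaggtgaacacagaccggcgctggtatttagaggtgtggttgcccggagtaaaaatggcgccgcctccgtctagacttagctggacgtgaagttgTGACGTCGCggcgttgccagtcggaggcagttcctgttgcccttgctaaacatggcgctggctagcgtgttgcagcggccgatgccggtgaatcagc
Psme1 promoter: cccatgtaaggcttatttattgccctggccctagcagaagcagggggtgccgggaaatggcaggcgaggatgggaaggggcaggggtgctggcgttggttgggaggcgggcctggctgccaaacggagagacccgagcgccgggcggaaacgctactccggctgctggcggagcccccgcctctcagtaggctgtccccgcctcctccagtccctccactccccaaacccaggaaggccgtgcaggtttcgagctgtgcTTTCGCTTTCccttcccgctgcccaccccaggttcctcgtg

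Other genes of the ubiquitin and proteasome pathway, 32 in number, were read from the same fits. None was called for Txnip in either strain. The genes described next were called between strains, in tests that called 17.5% of all genes in control and 17.6% in Txnip cones. Nfe2l1, which induces proteasome genes when proteasome activity falls, averaged 119 CPM in BALB/c controls and 63.3 in C57BL/6J controls, a log2 difference of -0.91 (SE 0.13, adjusted p = 3.89e-05, edgeR), and in Txnip cones it had -0.42 (adjusted p = 0.0263). Ddi2, the protease that activates Nfe2l1, was higher by 0.69 (adjusted p = 0.00891) and 0.52 (adjusted p = 0.0458). Rad23b, which carries ubiquitinated proteins to the proteasome, was higher by 1.00 (adjusted p = 0.0298) and 0.94 (adjusted p = 0.0439). The ubiquitin ligase Ube3a was lower in controls, with a log2 difference of -1.40 (adjusted p = 0.00294). In Txnip cones the chaperone Bag6 was higher by 0.57 (adjusted p = 0.0370) and the deubiquitinase Usp14, which acts at the 19S, had -0.49 (adjusted p = 0.0190).

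Interferon and MHC class I genes, which share their inducer with Psmb8, Psmb9, Psmb10 and Psme1, were also read from these fits. Of 16 tested, 3 were called lower in C57BL/6J control cones and 5 in Txnip cones, where 9.52% and 9.38% of all genes were, 0 were called higher, and none was called for Txnip in either strain. Usp18 had -3.70 (adjusted p = 0.0178) and -4.59 (adjusted p = 0.00291), Irf7 -1.71 (adjusted p = 0.0103) and -3.20 (adjusted p = 7.52e-05), and the peptide transporter Tap1 -2.28 (adjusted p = 0.0199) and -2.78 (adjusted p = 0.00332), by edgeR. In Txnip cones B2m, the light chain of MHC class I, had -2.35 (adjusted p = 0.0211) and Irf9 -1.98 (adjusted p = 0.0149). The list of 19 genes took 0.0596% to 0.151% of counts in BALB/c and 0.0458% to 0.0742% in C57BL/6J libraries. Ganglion and amacrine cell genes, the latter 4 of 6 lower in C57BL/6J in both comparisons, moved in the same direction, and their part in these results was not tested.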

How the data were processed

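The authors sorted H2BGFP-positive cones, made libraries with a modified Smart-Seq2 protocol, mapped the reads to GRCm38.p6 (STAR, per the submitters' processing notes, version not given) and deposited raw counts per Ensembl gene, made with featureCounts 1.6.2 on read pairs without strand. Nothing from the authors' DESeq2 comparisons was used. Here, edgeR 4.0.16 (R 4.3.3) was run on the deposited counts of all genes after filterByExpr and TMM scaling, with quasi-likelihood tests and Benjamini-Hochberg adjustment at 0.05. Each strain was fitted alone for Txnip, and all 4 groups together for strain and for the difference in Txnip effect. The tests were checked on simulated data with known changes of a smaller and a larger size. For Txnip, most of the smaller changes were found in the strain with more libraries and most were missed in the other. Between control cones more of the smaller changes were missed than found. The larger changes were mostly found in these comparisons. A lack of calls, above all for Txnip in the strain with fewer libraries, therefore does not show that small changes are absent. Copies were found with BLAST 2.17.0 (at least 95% identity over 300 bases). Of 36 pairs of libraries within groups, none agreed within counting error (smallest chi-square per degree of freedom 1.91).

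Members and lists were chosen with earlier results of these data known. Genes named were the catalytic and immunoproteasome subunits, members called, the extremes of comparisons without calls, the highest and lowest of each role by level, untested members, called genes of other lists, and genes that overlap or copy a named one. Mir686, Gm3375 and Gm12356 came under the last. Alternatives were DESeq2 1.42.0, its size factors, other filters, robust estimation, a rod covariate, a replicate block, other sets of libraries, and members summed with copies, the last added after the data were seen. The values of 1 called gene of the pathway list are not reported here.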

Additional observations from a re-analysis of the deposited data

Results flagged for a closer look

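Each tested member was examined in both BALB/c groups for a library far from the other 5, by Dixon's ratio of its gap to the nearest library over the range of the group, at the 95% value for 6 libraries. Of 92 member and group pairs 4 met it, where chance gives about 1 in 20. Psmb10 was at 0 CPM in BALB/c Txnip 6, with the next library at 7.25. That library had the fewest counts, 647712, and there 3 counts would be 4.63 CPM before the correction for composition. Psmb5 was highest in BALB/c control 2 at 53.2 CPM, with the next at 40.8. Psmd9 was highest in BALB/c Txnip 5 at 55.4 CPM, with the next at 36.9. Psmc5 was highest in BALB/c control 5 at 169.8 CPM, with the next at 155.3. Groups of 3 were not examined.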

How the results depend on the processing

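With all genes of at least 1 count in the fit, 1 member was called for Txnip in BALB/c and 1 for the difference in Txnip effect, Psmd3 both times. Over fits that left out 1 library the calls for Txnip in BALB/c ranged from 0 to 1, those between control cones from 2 to 7 and those between Txnip cones from 2 to 14. Calls between Txnip cones were 2 with at least 10 counts in every library (5.13% of members against 18.7% of all genes) and 14 without both C57BL/6J libraries high in rod genes (30.4% against 20.3%). Over the same fits the core median ranged from -0.34 to 0.16 for Txnip in C57BL/6J, from -0.075 to 0.47 between Txnip cones and from -0.36 to 0.19 for the difference in Txnip effect, and the regulatory median from -0.093 to 0.30 and from -0.19 to 0.26 for the last 2. Not divided by length, median levels in BALB/c and C57BL/6J controls were 85.5 and 118 CPM for the core, 127 and 142 for the 19S subunits and 2.52 and 1.17 for the immunoproteasome.

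Replicate numbers did not pair the libraries: same-numbered libraries correlated at -0.06 to 0.10 (BALB/c, 6 pairs) and -0.11 to 0.08 (C57BL/6J, 3 pairs), and 1 and 0 controls correlated best with their own number. A replicate block gave 0, 0, 4, 3 and 0 members called for Txnip in BALB/c, in C57BL/6J, between control cones, between Txnip cones and for the difference in Txnip effect. The block was coded within each strain against its replicate 1. With it a strain difference therefore compares the fitted levels of replicate 1, not the means of the strains, and is another quantity than above. In that comparison the core and regulatory medians between control cones were 0.57 and 0.34. There Psme3 between controls (adjusted p = 0.101) and Psme1 (0.154) and Psme3 (0.138) between Txnip cones were not called by edgeR, while Psma3 between Txnip cones was (0.77, adjusted p = 0.0394).

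The log2 differences below changed sign in some fits, and of these Psmb6 between Txnip cones was called at one end of its range (0.54, without C57BL/6J Txnip 2, adjusted p = 0.0335 by edgeR). For Txnip in BALB/c, Psmb7 was -0.27 with the rod covariate. Without both libraries high in rod genes Psmb10 was 0.030 and Psmb6 0.17 for Txnip in C57BL/6J, and Psmb10 was -0.14 between control cones. With the block, where a strain difference compares replicate 1 only, Psmb10 was 0.13 and Psmb7 -0.023 between Txnip cones. Leaving out 1 library, the ranges for Txnip in BALB/c were -0.15 to 0.11 for Psmb10, -0.13 to 0.013 for Psmb5 and -0.071 to 0.14 for Psmb7. For Txnip in C57BL/6J they were -0.51 to 0.062 for Psmb5, -0.39 to 0.18 for Psmb6 and -0.13 to 0.10 for Psmb7. Between control cones they were -0.17 to 0.32 for Psmb10 and -0.036 to 0.19 for Psmb7, and between Txnip cones -0.077 to 0.54 for Psmb6 and -0.073 to 0.11 for Psmb7. The causes were not tested.

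In the other alternatives without a library left out, 3 to 5 members were called between control cones and 3 to 6 between Txnip cones. The share of members called in these was below that of all genes, except with all genes of at least 1 count (4 of 50 against 6.27% and 5 of 50 against 6.03%) and with the block (8.70% against 6.85% and 6.52% against 5.82%). The block fit compares the replicate 1 levels of the strains, not their means. Depth limits Psmb8, Psmb9 and Psme1, and the 3 libraries per group limit all C57BL/6J comparisons.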
